A study of Ovis aries with 3 samples.

Results

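The skeletal myogenic cells of whole sheep embryos were described here from single-cell RNA sequencing of 3 libraries, each of them the only one of its group. E19 HSTS was an embryo of Hulunbuir short-tailed sheep, a breed that carries a missense mutation in *T* (Brachyury, a mesoderm and notochord transcription factor), taken 19 days after insemination. E19 HS was a Hu sheep embryo of the same day with the wild-type allele, and E16 HS was wild-type Hu sheep material of day 16, for which the label names 1 embryo and the study's methods name 3, so pooling could not be settled. Breed, *T* allele and single embryo therefore cannot be told apart, and no difference between libraries has a replicate. Whole embryos were dissociated with collagenases, red cells were lysed, and single-cell 3′ libraries were made, and the deposited totals ran from 94754580 to 128271878 UMIs a library. Of 35823 deposited barcodes, 31576 passed the cell filter (200 to 6000 genes, 1000 to 30000 unique molecular identifiers or UMIs, at most 10% of UMIs on mitochondrial genes). A cell was a member if at least 2 of the 4 muscle genes *MYF6*, *MYLPF*, *KLHL41* and *TNNC2* had a UMI, *MYL7* had under 3 UMIs and *AHSP* under 5. This rule found 197 members, 108 of 9618 kept cells in E19 HSTS, 75 of 10629 in E19 HS and 14 of 11329 in E16 HS.

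Skeletal muscle of the trunk and limbs arises from the dermomyotome, the dorsal epithelium of the somite, whose progenitors carry the paired-box factors *PAX3* and *PAX7*. The myogenic regulatory factors *MYF5*, *MYOD1*, *MYF6* and *MYOG* are basic helix-loop-helix proteins that commit these progenitors and, together with MEF2 proteins, switch on the contractile genes as the cells leave the cell cycle. The first muscle of the somite is the myotome, and its mononucleated myocytes carry embryonic, slow and cardiac forms of the sarcomere proteins before fibres fuse and fast and slow types separate. *MYF6* (MRF4) is one of these factors, *MYLPF* is the regulatory light chain of fast skeletal myosin, *TNNC2* is fast skeletal troponin C and *KLHL41* is a sarcomere-associated Kelch protein.

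The label was checked against muscle genes that the rule did not use. Contractile level was taken as the summed level in CPM (UMI counts scaled to the same total in every cell or library) of 42 thin filament, thick filament and Z disc genes outside the rule. In E19 HSTS the median member stood at 8387 CPM (lowest 148, highest 79379), and the median of the other kept cells was 363. In E19 HS the median member stood at 7337 CPM (lowest 321, highest 54480), and the others at 432. In E16 HS the median member stood at 523 CPM (lowest 128, highest 6965), below the 591 CPM of the other kept cells. The 12 E16 members with exactly 2 rule genes reached at most 1489 CPM, and only the other 2, with 4 and 3 rule genes, stood at 3460 and 6965. By their medians the E19 members carried a muscle contractile program, but among those with exactly 2 rule genes the 25th percentile was 1671 CPM in E19 HSTS and 1245 in E19 HS, under the 95th percentile of the other kept cells (1901 and 2162), so this level does not set each such cell apart. In E16 HS the data go against the name for 12 of 14 cells, which are called here only cells that met the rule.

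**Figure D1:**
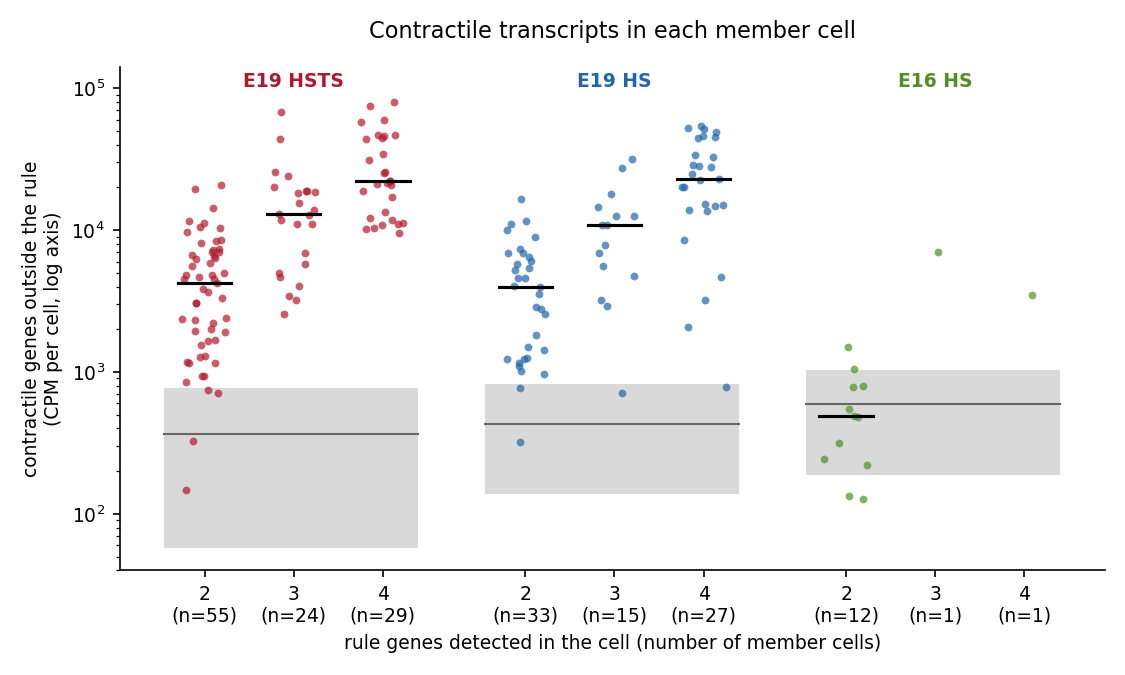
Each point is 1 member cell; the vertical axis (logarithmic) is the summed CPM of 42 contractile genes that the rule did not use, and the horizontal axis separates the 3 libraries and the number of rule genes detected. Black lines mark medians, and the grey band and line mark the 25th to 75th percentile and the median of the other kept cells of that library. Members of E19 HSTS with 3 or 4 rule genes have a median of 18508 CPM and those of E19 HS 15142, while the 12 two-gene cells of E16 HS have a median of 486.

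The members took 1.12% of kept cells in E19 HSTS (exact Clopper-Pearson 95% interval 0.922 to 1.35), 0.706% in E19 HS (0.555 to 0.884) and 0.124% in E16 HS (0.0676 to 0.207). These and all later intervals cover counting error only and not the spread between embryos. The share in E19 HSTS was 1.59 times that in E19 HS (1.17 to 2.17). With each cell thinned to 3000 UMIs, 51 of 8512 cells in E19 HSTS (0.599%), 40 of 9284 in E19 HS (0.431%) and 2 of 10012 in E16 HS (0.02%) met the rule, and the ratio was 1.39 with an interval from 0.901 to 2.16 that includes 1. Erythroid cells (*AHSP* at 5 or more UMIs), which make no skeletal muscle RNA, gave the background of free RNA. At least 2 rule genes had a UMI in 5 of 2499 of them in E19 HSTS (0.2%), in 5 of 1401 in E19 HS (0.357%) and in 0 of 1993 in E16 HS, which allows up to 0.151%. The erythroid cells were deeper, with medians of 17925, 17742 and 14233 UMIs against 8870, 9026 and 10183.5 in the members. The E16 share of 0.124% was not above that limit and could not be told apart from background at this depth, although 2 of the 14 cells held 3460 and 6965 contractile CPM. As a share of kept cells other than erythroid ones, the members took 1.52%, 0.813% and 0.15%. Dissociation, red-cell lysis and the choice of cells can set such shares, and their part was not tested.

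The members were chosen by the UMI counts of the 4 rule genes, whose values are given as a description, with no test. *MYLPF* had 2592 UMIs in 73 of 108 members of E19 HSTS and 2209 in 45 of 75 of E19 HS, with up to 484 and 342 UMIs in 1 cell. *TNNC2* had 1220 UMIs in 67 members and 1407 in 53. *KLHL41* was found in 91 and 60 members and *MYF6* in 67 and 61. In E16 HS no member held more than 3 UMIs of any rule gene, and the sums were 3 UMIs of *MYLPF*, 10 of *TNNC2*, 11 of *KLHL41* and 12 of *MYF6*. Exactly 2 rule genes were found in 55, 33 and 12 members, 3 in 24, 15 and 1, and all 4 in 29, 27 and 1 (E19 HSTS, E19 HS, E16 HS). The most common pair in E19 was *MYF6* with *KLHL41*, in 16 and 15 members. *MYLPF* with *KLHL41* came next in E19 HSTS with 14 members but marked only 2 in E19 HS. Just outside the threshold lay 270, 259 and 269 cells with exactly 1 rule gene, neither cardiac nor erythroid, and 7, 1 and 1 cells met the gene count but were left out for *MYL7*, and 5, 5 and 0 for *AHSP*. *MYF6* is listed under 2 identifiers, and all its UMIs fell on ENSOARG00020008943.

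The myogenic regulatory factors other than *MYF6* were found in a minority of members but hardly in other cells. *MYF5*, the earliest of the family in the somite, had 31 UMIs in 26 members of E19 HSTS (28.6 CPM, exact Poisson interval 19.4 to 40.6) against 0.426 CPM in the other kept cells. In E19 HS it had 25 UMIs in 19 members (34.7 CPM, 22.5 to 51.3) against 0.227 CPM. *MYOG* (myogenin), needed for terminal differentiation, had 12 UMIs in 12 members of E19 HSTS and 7 UMIs in 6 members of E19 HS, and 1 UMI in all other kept cells of either library. *MYOD1* had 3 UMIs in E19 HSTS, while E19 HS had none. *MYF5* was thus detected in 24.1% and 25.3% of members, against 0.0400% and 0% of erythroid cells, and in 11.5% and 14.3% of members thinned to 3000 UMIs. Neither *MYF5*, *MYOD1* nor *MYOG* had a UMI in the 14 cells of E16 HS. A count of 0 in those cells allows up to 25.6 CPM, which lies within both E19 intervals of *MYF5*. *MYOG* and *MYOD1* had fewer UMIs than *MYF5* at E19, so these zeros do not set E16 HS apart.

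The factors were found in overlapping cells. Of 26 *MYF5*-positive members of E19 HSTS, 19 also held *MYF6*, and in E19 HS 16 of 19 did. *MYOG* came with *MYF6* in 10 of 12 and 6 of 6 members, whereas *MYF5* and *MYOG* shared only 4 members and 1. *MEF2C*, a MADS-box partner of the myogenic factors, stood at 73.8 CPM in E19 HSTS (80 UMIs, 25 members) and 72.3 in E19 HS (52 UMIs, 25 members), 26.0 and 21.4 times the other kept cells. The EYA cofactors, which act upstream of the myogenic factors, were sparse, and *EYA2* had 7 and 6 UMIs and *EYA4* 5 and 2. *HES6* had 1 UMI and 0. Across all 13288 genes with at least 50 UMIs in the 3 libraries, 1.78% were at least 4-fold higher in members than in other kept cells in both E19 libraries. Of the 11 myogenic factors among them 6 were, *MYF6* of the rule included. In single libraries the share of all genes at least 4-fold higher was 4.6%, 3.97% and 4.81% (E19 HSTS, E19 HS, E16 HS). In E16 HS 3 of the 11 factors were, *MYF6* of the rule included. *MYF6* held 12 of the 17 UMIs of the whole factor list there, so nothing is read from that count. The median gene over all tested was itself 1.36 times higher in members of E19 HSTS and 1.14 times in E19 HS, and a ratio is to be read against this shift.

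Genes of the dermomyotome and of muscle progenitors were present alongside. *PAX3* stood at 82.1 CPM in E19 HSTS (89 UMIs in 44 members), 3.81 times the other kept cells (3.05 to 4.71), and at 57.0 CPM in E19 HS (41 UMIs in 29 members), 3.43 times (2.45 to 4.67). *MEOX1*, a homeobox gene of the somite, was 7.53 and 7.25 times higher, and *MEOX2* 4.57 and 4.92 times. The *PAX3* share of members, 40.7% and 38.7%, compares with 1.76% and 0.857% of erythroid cells. *PAX7* had 2 UMIs in each library, *TCF15* 7 and 1, *DMRT2* 14 and 3, and *MET*, the receptor of migrating limb muscle precursors, 8 and 1. *LBX1*, the other marker of migrating precursors, and *MSTN* (myostatin) had 0 UMIs in members of both, and *CXCR4* was lower than in other cells (0.377 and 0.605 times). Of 8 tested genes of this list 2 were at least 4-fold higher in both E19 libraries. *PAX3* and the embryonic myosin *MYH3* met in 7 of 44 *PAX3*-positive members of E19 HSTS and 6 of 29 of E19 HS.

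Members were set beside cells with both *PAX3* and *MEOX1* that were not members (234 in E19 HSTS, 124 in E19 HS, 265 in E16 HS), which stand for the dermomyotome as far as these 2 genes go. That choice fixes *PAX3* and *MEOX1*, and the member rule fixes *MYF6*, *MYLPF*, *KLHL41* and *TNNC2*, so only other genes are compared. Those are not free of the choice either. Leaving members out takes every cell with at least 2 rule genes from the *PAX3* and *MEOX1* cells, which lowers muscle genes found with them. *MYF5* was higher in members, by 4.28 times in E19 HSTS (2.24 to 8.53) and 9.92 times in E19 HS (3.43 to 39.2). *MEF2C* was higher by 20.7 and 13.8 times, and M-cadherin, *CDH15*, by 28 and 17.1 times. The slow troponin *TNNT1* was 9.47 and 15.4 times higher, which rests on 787 and 156 UMIs in the *PAX3* and *MEOX1* cells. Part of these cells held some muscle RNA: any rule gene had a UMI in 46 of 234 (19.7%), 15 of 124 (12.1%) and 25 of 265 (9.43%), against 1.84%, 1.78% and 0.803% of erythroid cells. *DMRT2* went the other way, with 12.9 CPM in members against 34.3 in E19 HSTS and 4.17 against 21.9 in E19 HS. HOX genes summed to 0.968 and 1.04 times the level of the *PAX3* and *MEOX1* cells.

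**Figure D2:**
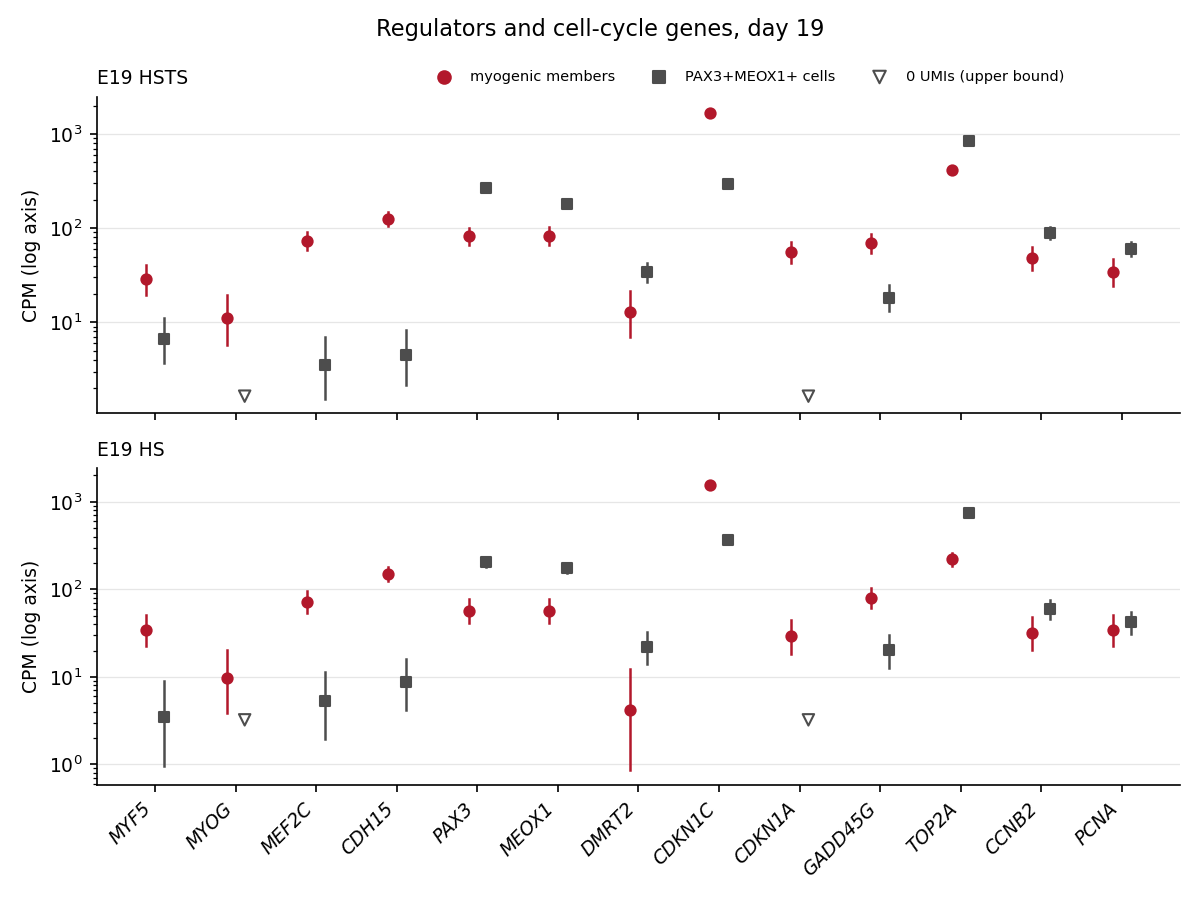
Level in CPM (logarithmic axis) of 13 regulators of the myogenic lineage and of the cell cycle in skeletal myogenic members and in *PAX3* and *MEOX1* positive cells outside the rule, for E19 HSTS and E19 HS; bars are exact 95% Poisson intervals, and an open triangle stands at the upper bound of a count of 0. *MYF5*, *MEF2C*, *CDH15* and *CDKN1C* lie higher in members of both libraries, *DMRT2* and *TOP2A* lower.

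Slow and cardiac forms of the thin filament genes were high in members. *ACTC1*, cardiac alpha-actin, which early skeletal muscle also uses, stood at 3090 CPM in E19 HSTS (76 members, up to 452 UMIs in 1 cell) and 2880 in E19 HS (64 members, up to 193), 27.1 and 21.9 times the other kept cells. Skeletal alpha-actin, *ACTA1*, was found in only 12 and 8 members at 33.2 and 30.6 CPM, 10.9 and 17.5 times the others. *TNNT1*, slow troponin T, was detected in 100 of 108 and 67 of 75 members, at 3318 and 2106 CPM (56.7 and 73.6 times). Slow troponin I, *TNNI1*, stood at 1355 and 1640 CPM (33.5 and 34.6 times), and troponin C of slow and cardiac muscle, *TNNC1*, at 949 and 1194 (12.1 and 14.1 times). The fast form *TNNI2* had 16 and 19 UMIs, 5.12 and 7.13 times the other kept cells. Fast troponin C, the rule gene *TNNC2*, stood at 1126 and 1955 CPM, a description only. Fast troponin T, *TNNT3*, had no entry under that symbol. Beta-tropomyosin, *TPM2*, was detected in 103 and 70 members and was 14.8 and 9.02 times higher. Nebulin, *NEB*, the giant ruler of the thin filament, stood at 242 CPM in 36 members and 293 CPM in 30, 156 and 232 times the others. Smooth muscle actin, *ACTA2*, was lower than in other cells (0.290 and 0.289 times). Of 16 tested thin filament genes 13 were at least 4-fold higher in both E19 libraries, including the rule genes *TNNC2* and *KLHL41*.

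Among the myosin heavy chains, the embryonic form was found in members and hardly in other cells. *MYH3*, embryonic myosin heavy chain, had 292 UMIs in 24 members of E19 HSTS (269 CPM) and 284 UMIs in 19 members of E19 HS (395 CPM), against 27 and 23 UMIs in all other kept cells. The largest single cell gave 54 and 77 of these UMIs. Perinatal myosin, *MYH8*, had 0 UMIs. The slow and cardiac chains *MYH7* and *MYH6* were below the other kept cells in summed level, at 0.440 and 0.317 times and at 0.316 and 0.331 times. Those other cells include the cardiac cells. By detection *MYH7* was found in 9.26% and 8% of members against 3.97% and 3.54% of the others, and *MYH6* in 3.70% and 2.67% against 1.13% and 0.853%. Among light chains *MYL4* (embryonic and atrial) was 6.17 and 8.42 times higher, *MYL2* (slow and ventricular) 9.47 and 18.1 times and *MYL6B* 16.0 and 9.07 times. *MYL3* was lower than in other cells (0.543 and 0.335 times). Myosin-binding protein C of slow muscle, *MYBPC1*, had 49 and 38 UMIs against 7 and 2 in all other kept cells, and *MYOM3*, an M band protein, 23 and 9 against 8 and 4. *SMYD1* and the myosin chaperone *UNC45B*, both needed to fold or assemble myosin, were 16.6 and 44.8 times and 25.7 and 57.6 times higher. Of 13 tested thick filament genes 9 were at least 4-fold higher in both, *MYLPF* of the rule included.

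At the Z disc, desmin (*DES*) stood at 106 CPM (46 members) and 97.3 CPM (31 members), 19.7 and 21.1 times the other kept cells, and alpha-actinin-2 (*ACTN2*) was 8.67 and 12.6 times higher. *MYOT* (myotilin) had 12 and 6 UMIs in members and 1 and 0 in all other cells. *MYPN* and *MYOZ2* were 51.1 and 168 times and 83.3 and 38.9 times higher on 9 to 14 UMIs. Of 9 tested genes of this list 6 were at least 4-fold higher in both E19 libraries.

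Genes of fusion, excitation and the synapse gave an uneven picture. Myomaker, *MYMK*, which drives myoblast fusion, had 1 UMI in E19 HSTS and 5 in E19 HS, and its partner *MYMX* had 0 in every kept cell. *CDH15* stood at 125 CPM (52 members) and 150 CPM (40 members), 423 and 99.3 times the other kept cells, and was the only 1 of 5 tested fusion and adhesion genes that passed 4-fold in both. The ryanodine receptor *RYR1*, the calcium release channel, had 21 and 10 UMIs (159 and 64.4 times). *STAC3*, which couples it to membrane excitation, had 15 and 8, and the calcium pump of fast fibres, *ATP2A1*, 11 and 11. The voltage sensor *CACNA1S* had 0 UMIs. Calcium genes at least 4-fold higher in both were 2 of 6 tested. Of the acetylcholine receptor, the alpha subunit *CHRNA1* had 10 and 6 UMIs in members and 0 in all other kept cells (at least 303- and 245-fold higher with 3 UMIs as the limit of a zero), and the fetal gamma subunit *CHRNG* 24 and 9 (42.0 and 33.4 times). The adult epsilon subunit, *CHRNE*, had 0 and 1. *MUSK*, the receptor kinase that gathers these receptors, had 24 and 23 UMIs, 436 and 938 times the other cells. Synapse genes 4-fold higher in both were 2 of 5 tested.

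Genes of muscle energy supply were uneven, with the creatine kinases *CKM* and *CKMT2* near absent and the list as a whole at 4.31 and 3.67 times the other kept cells. Muscle creatine kinase, *CKM*, had 2 UMIs in E19 HSTS and none in E19 HS, and its mitochondrial partner *CKMT2* had 0. The brain form *CKB* was 4.49 and 3.48 times higher in members. Muscle enolase, *ENO3*, was 5.30 and 8.79 times higher and *PYGM*, muscle glycogen phosphorylase, 10.1 and 8.79 times. *PFKM* was close to the other cells (1.17 and 1.01 times). Of 7 tested genes 4 were at least 4-fold higher in both.

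The heart shares many of these genes, so members were set beside cardiac cells (3 or more *MYL7* UMIs; E19 HSTS held 83 and E19 HS 115), which the rule excludes by *MYL7*. Any rule gene had a UMI in 60.2% of the cardiac cells of E19 HSTS and 22.6% of those of E19 HS. That compares with 3.83% and 2.94% of all other kept cells and 1.84% and 1.78% of erythroid cells. *TNNT1* was 32.4 times higher in members in both libraries, *TPM2* 3.24 and 2.80 times and *MYL6B* 12.1 and 9.88 times. *NEB* was 131 (35.9 to 1086) and 266 (47.2 to 10560) times higher, and *MYH3* 29.2 and 71.6 times. *MYOG*, *MYBPC1*, *MYOM3*, *CDH15*, *RYR1*, *MUSK* and *CHRNA1* had 0 UMIs in the cardiac cells of both libraries. *ACTC1* was lower in members than in cardiac cells, at 0.330 and 0.277 times, *TNNC1* at 0.141 and 0.159 times, *TNNT2* at 0.0823 and 0.105 times and *MYL4* at 0.0719 and 0.0963 times. *TNNI1* was near equal, at 0.959 (0.892 to 1.03) and 1.14 (1.05 to 1.24). *MYH7* stood at 0.00522 and 0.00357 times the cardiac level and *MYL3* at 0.00618 and 0.00358. Of the defining cardiac genes outside the rule, *NKX2-5*, *NPPA*, *GATA4* and *TBX20* had 0 UMIs in members of both E19 libraries, *TBX5* and *HAND1* had 1 and 0 and *HAND2* 2 and 0. Both groups were chosen by *MYL7*, so low levels of cardiac genes in members, *MYH7* and *MYL3* included, are not free of that choice. *TNNI3*, cardiac troponin I, was present, with 168 and 80 UMIs in 67 and 40 members, at 2.36 and 1.78 times the other kept cells. *SMPX*, a small protein of striated muscle, was the only 1 of 9 tested cardiac genes at least 4-fold higher than in other kept cells in both, at 19.4 and 32.0 CPM.

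**Figure D3:**
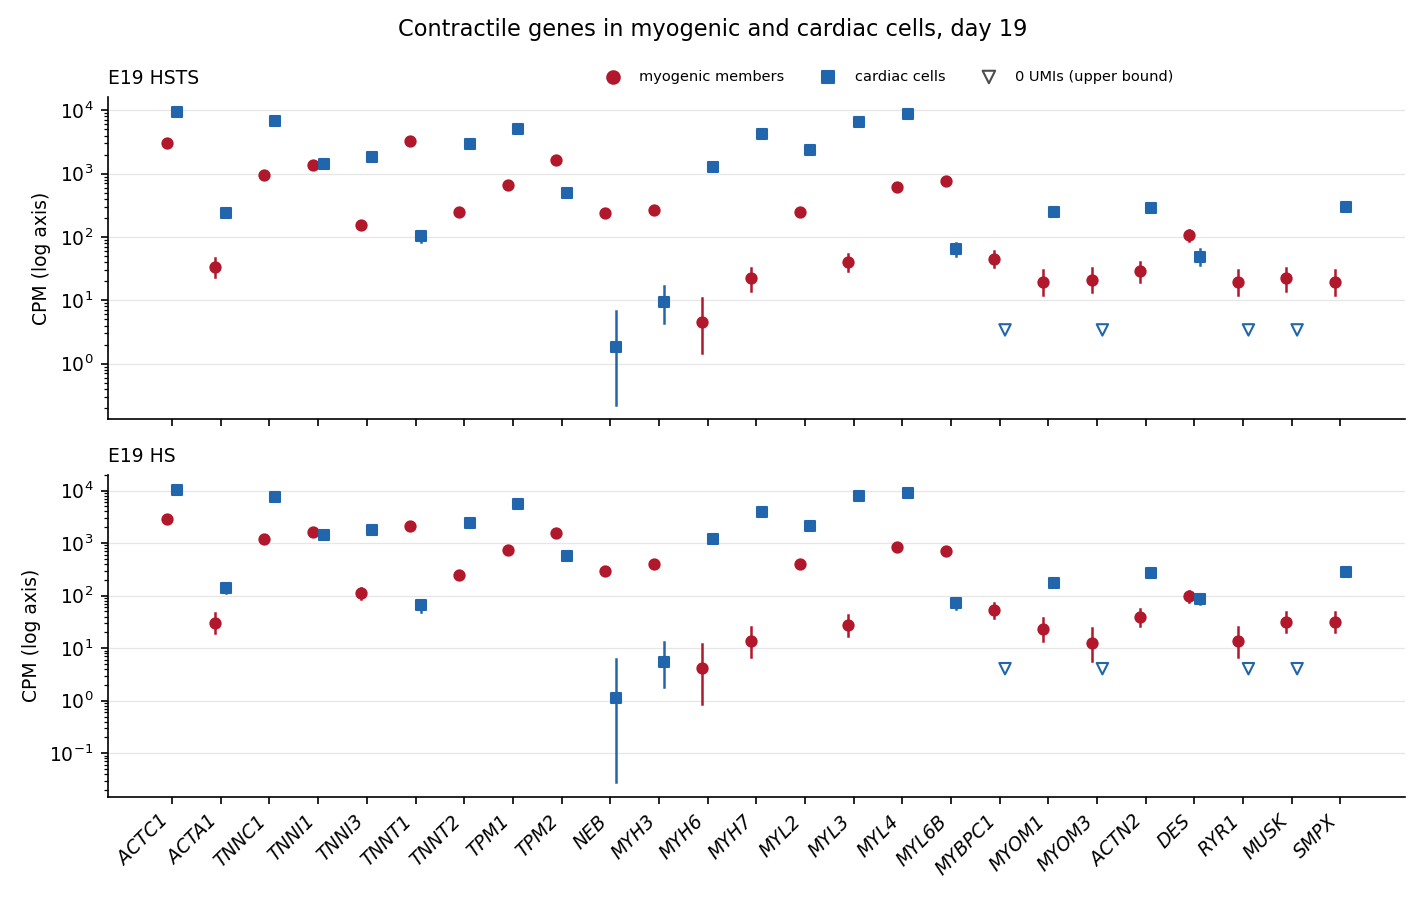
Level in CPM (logarithmic axis) of 25 contractile, excitation and synapse genes in skeletal myogenic members and in cardiac cells of E19 HSTS and E19 HS; bars are exact 95% Poisson intervals and open triangles stand at the upper bound of a count of 0. *TNNT1*, *NEB*, *MYH3* and *MYL6B* lie higher in members, *MYH7*, *MYL3* and *TNNT2* lower, and *TNNI1* is at a like level in both.

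Within E19 the cells were also grouped by how many rule genes they held, as a description only. The same genes chose the members, and a cell with more muscle RNA shows more of them. A rise of other muscle genes with this number is therefore no separate result. The counts were compared in cells thinned to 3000 UMIs, since a deeper cell shows more rule genes. Rule genes were counted after thinning, and only cells with *MYL7* under 3 UMIs and *AHSP* under 5 after thinning were grouped. The level with 0 rule genes is therefore not that of all other kept cells, where *ACTC1* stood at 114 and 131 CPM before thinning (E19 HSTS, E19 HS). In E19 HSTS *ACTC1* stood at 14.9, 249, 2037, 4854 and 10583 CPM in cells with 0 to 4 rule genes, and in E19 HS at 30.7, 217, 1262, 3806 and 6476. *MYH3* had 2 UMIs among the 27 two-gene cells of E19 HSTS and 0 among the 14 of E19 HS, and reached 354 and 361 CPM with 3 rule genes and 1542 and 1286 with 4. *TNNT1* stood at 1109 CPM with 1 rule gene and 5417 with 4 in E19 HSTS, and at 470 and 3476 in E19 HS. Cells with 1 rule gene after thinning include members that lost other rule genes, so they do not stand for cells outside the rule. In all UMIs of E19 HS, the 259 cells with exactly 1 rule gene, which are no members, held *ACTC1* at 57.3 CPM. Cells with none held 32.8. *TNNT1* stood at 172 against 33.9 CPM in the same cells, and *MYH3* had 2 UMIs in those with 1 rule gene. The progenitor list summed to 309 CPM with 2 rule genes and 62.5 (12.9 to 183) with 3 in E19 HSTS, and to 238 and 167 (61.2 to 363) in E19 HS, on 3 to 25 UMIs. The cells with 3 rule genes numbered 16 and 12 and those with 4 numbered 8 and 14.

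**Figure D4:**
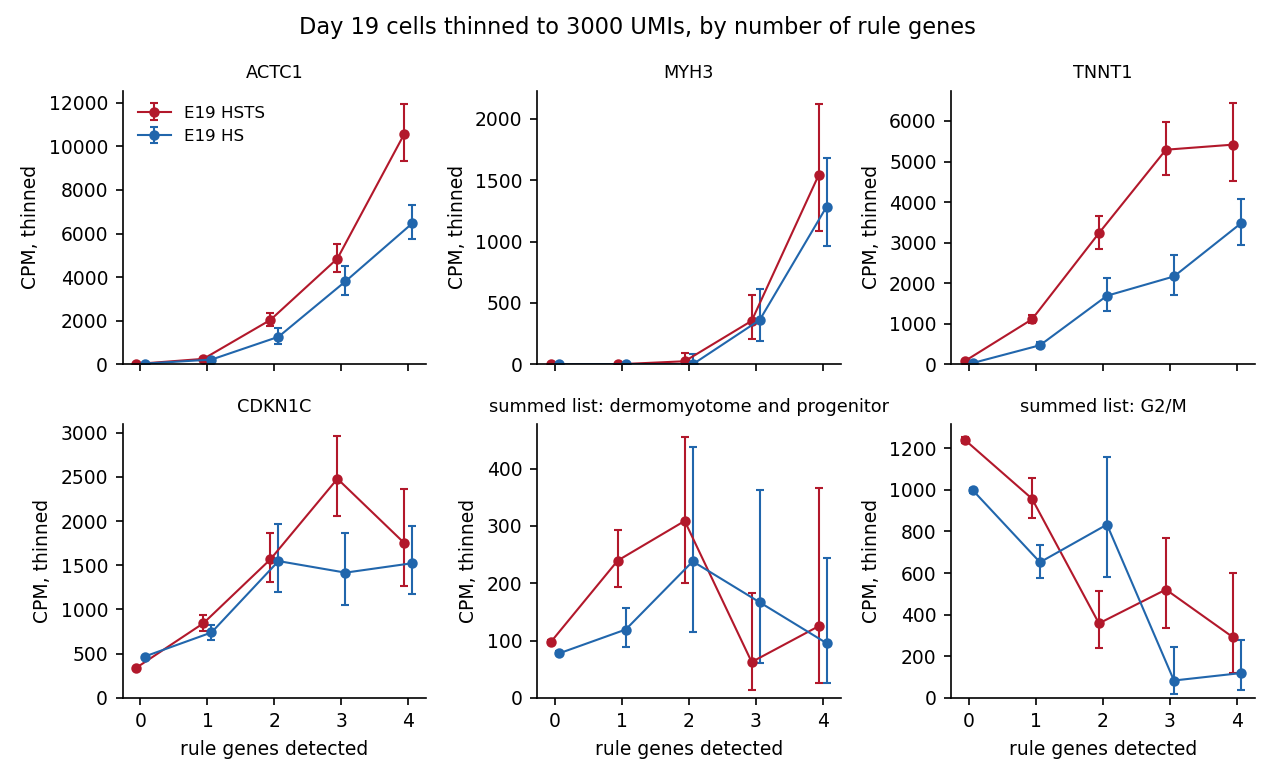
Level in CPM (linear axes from 0) of *ACTC1*, *MYH3*, *TNNT1*, *CDKN1C*, the summed progenitor list and the summed G2/M list against the number of rule genes detected (0 to 4) in cells thinned to 3000 UMIs, for both E19 libraries; bars are exact 95% Poisson intervals. Rule genes were counted after thinning, and only cells with *MYL7* under 3 UMIs and *AHSP* under 5 are grouped. *ACTC1* is higher with each further rule gene, *MYH3* is seen almost only with 3 or 4, *CDKN1C* is above its zero-gene level from 1 rule gene on, and the G2/M sum with 4 rule genes (292 and 119 CPM) is below that of cells with none.

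The summed G2/M genes lay below the other kept cells in E19 members, and 2 of 7 cycle exit genes were at least 4-fold higher in both libraries. *TOP2A*, a G2/M topoisomerase, stood at 413 CPM in E19 HSTS, 0.675 times the other kept cells, and at 220 CPM in E19 HS, 0.410 times. *CCNB2*, cyclin B2, was at 0.616 and 0.442 times and the replication licensing factor *MCM5* at 0.474 and 0.545 times. The G2/M list summed to 0.723 (0.676 to 0.772) and 0.423 (0.376 to 0.474) times the others, and none of its 7 tested genes nor of 10 S phase genes reached 4-fold. Against *PAX3* and *MEOX1* cells the G2/M sum was 0.566 and 0.330 times. *CDKN1C* (p57), which holds differentiating muscle cells in G1, was found in 105 of 108 and 74 of 75 members at 1663 and 1559 CPM, 6.37 (6.07 to 6.69) and 4.33 (4.07 to 4.59) times the other kept cells. It was 5.69 and 4.25 times higher than in *PAX3* and *MEOX1* cells. *CDKN1A* (p21), a target of MYOD, was found in 20 and 12 members at 55.4 and 29.2 CPM, 51.0 and 19.3 times the other cells, and had 0 UMIs in the *PAX3* and *MEOX1* cells. *GADD45G* was 3.85 and 5.68 times higher, whereas *CDKN1B* (p27) was near the other cells in E19 HS (1.60 and 1.09 times). In thinned cells the G2/M sum of E19 HSTS was 1240, 958, 358, 521 and 292 CPM with 0 to 4 rule genes, and in E19 HS 997, 652, 833, 83.3 and 119. These groups leave out cells at or above the *MYL7* or *AHSP* limit, so the level with 0 rule genes is not that of all other kept cells.

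HOX genes, which record position along the trunk, were higher in members than in the other kept cells for the middle groups. Groups 5 to 8 summed to 433 CPM in E19 HSTS against 132 (3.28 times, 2.98 to 3.59) and to 332 against 119 in E19 HS (2.79 times, 2.44 to 3.17). Groups 1 to 4 were 1.97 and 1.59 times the others and group 9 was 1.33 and 1.38 times. The others include the erythroid cells, of which only 10.6% and 9.85% held any HOX UMI. *PAX3* and *MEOX1* cells stood at 329 and 214 CPM for groups 5 to 8, below the members. For groups 1 to 4 they stood at 143 and 146 CPM, above the 122 and 108 of members. For group 9 they stood at 200 and 142 CPM, above the 116 and 111 of members. Groups 10 to 13, of lumbar to tail levels, had 3 UMIs in members of E19 HSTS and 2 in E19 HS, 0.210 (0.0432 to 0.614) and 0.207 (0.0250 to 0.748) times the others, and *PAX3* and *MEOX1* cells stood at 24.5 and 28.9 CPM. None of 33 tested HOX genes was 4-fold higher in both. *HOXA7* was 5.81 times higher in E19 HSTS and 3.81 in E19 HS. Markers of head muscle were near absent, with sums of 5 and 7 UMIs, and the tail bud list (*T* included) had 0 in both.

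Markers of other cell types were measured to see what else the members held. Of 7 neural genes tested 6 were at least 4-fold lower in both E19 libraries, against 0.429% of all genes. The erythroid sum ranged from 62.5 to 104 CPM in members and from 1230 to 2081 in other cells over the 3 libraries, a difference that the *AHSP* limit of the rule sets and from which nothing is read. Endothelial genes summed to 0.299 and 0.217 times the others, and no member held a UMI of the 5 myeloid genes. Sclerotome (1.13 and 0.904 times), mesenchyme (0.987 and 0.707), epithelial (0.731 and 0.437), smooth muscle (1.68 and 1.56) and neural crest (0.993 and 1.48) sums lay nearer the other cells. In the neural crest list 1 of 3 tested genes was 4-fold higher in both. Yolk sac and hepatic endoderm genes summed to 413 CPM in E19 HSTS and 27.8 in E19 HS, and 1 cell held most of the former.

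In all 3 libraries together, 57 genes (0.429% of those tested) were at least 4-fold higher in members. Outside the lists the leading named ones were *JSRP1*, a protein of the sarcoplasmic reticulum junction (113 and 122 times the other kept cells in E19 HSTS and E19 HS), *IL17B* (202 and 237 times), *FNDC5*, the precursor of irisin (43.9 and 27.6 times), *ABLIM3* (100.0 and 116 times), *SLC8A3*, a sodium-calcium exchanger (64.9 and 61.1 times on 5 and 3 UMIs), and *TRIM55*, a sarcomere-associated ubiquitin ligase (16.5 and 29.1 times). *SLC6A13*, a GABA transporter, was 75.7 and 119 times higher, *RBM20*, the splicing factor of titin, 12.9 and 15.3 times, *LAMA2* 10.3 and 13.6 times and *WWTR1* (TAZ) 10.1 and 11.8 times. *RBFOX1*, *ZBTB18*, *MAMDC2*, *WNT11* and *BDNF* complete the 15, at 6.44 to 28.6 times. Their E16 values rest on 1 to 5 UMIs each. Because the E16 cells were mostly not muscle-like, both E19 libraries were also ranked alone, a choice made after the values were seen. That ranking added *PRR32* (82 and 87 UMIs, 678 and 1064 times), *MYL1b*, as the gene table names it (45 and 108 UMIs, 409 and 1651 times), *XIRP2*, an actin-binding muscle protein (205 and 178 times), *TXLNB*, *ARPP21*, *KLHL31* (45.4 and 112 times), *HBB* on 5 and 2 UMIs, *NOL3* and *CALB2*. At the other end, apart from *AHSP* and *MYL7* of the rule, stood the metallothioneins *MT1C*, *MT2* and *MT1A*, the erythroid genes *ALAS2*, *GATA1* and *HEMGN*, the neuronal *NEFM* and the neural *PAX6*. The *AHSP* limit keeps erythroid cells out of the members, so nothing is read from the erythroid genes.

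The members of E19 HSTS and E19 HS were compared gene by gene over 2938 genes with at least 50 UMIs over both. At least 2-fold higher in E19 HSTS were 112 genes (3.81%) and lower 29 (0.987%), with a median gene at 1.09. Scaled by TMM, which moves every ratio by -0.13 on the log2 scale, the split was 75 and 44. Most of the listed contractile genes lay within 2-fold between the E19 libraries, whereas the light chain gene *MYL1b*, outside the lists, was at 0.277 times (0.191 to 0.395). The thin filament list summed to 1.00 times (0.974 to 1.03; 0.911 by TMM), with none of 12 genes past 2-fold either way, and none of 7 thick filament genes past it (sum 0.798, 0.766 to 0.833). Both lists hold rule genes, *TNNC2* and *KLHL41* in the thin filament list and *MYLPF* in the thick filament list. *MYLPF* alone gave 2592 of the 4853 thick filament UMIs in E19 HSTS and 2209 of 4037 in E19 HS. *TNNT1* was higher in E19 HSTS, at 1.58 times (1.48 to 1.67), but 2.05 times in the other kept cells of the same libraries. *MYL2* was at 0.619 times (0.522 to 0.732) and *MYH3* at 0.683 (0.578 to 0.807), and without the 1 E19 HS cell that holds 27.1% of its UMIs *MYH3* was at 0.921. *NEB*, at 0.825, likewise stood at 1.03 without 1 cell. The rule genes *TNNC2* and *MYLPF* were at 0.576 and 0.779 times, a description only, and at 0.677 and 0.902 without the top cell.

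Regulators and progenitor genes were near each other. *MYF5* was at 0.824 times (0.471 to 1.45), *MEF2C* at 1.02 (0.712 to 1.48) and *CDH15* at 0.830 (0.640 to 1.08). *PAX3* was at 1.44 (0.985 to 2.14) and *MEOX1* at 1.46 (0.997 to 2.16), intervals that include 1, and the progenitor list summed to 1.36 (1.09 to 1.70). Of the 6 HOX genes tested none passed 2-fold, with *HOXA5* farthest at 1.93 (1.30 to 2.95). *CDKN1C* did not differ beyond its interval (1.07, 0.989 to 1.15) and *CDKN1A* was at 1.90 (1.14 to 3.28).

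The G2/M sum was 1.96 times higher in members of E19 HSTS (1.72 to 2.24; 1.79 by TMM) and 1.15 times in the other kept cells. *BUB1*, a spindle checkpoint kinase, was at 3.04 times (1.61 to 6.25), *TPX2* at 2.00 (1.53 to 2.65), *TOP2A* at 1.88 (1.56 to 2.27), *AURKB* at 1.80 and *CCNB2* at 1.5 (0.903 to 2.57), so that 2 of 5 tested passed 2-fold beside the 3.81% of all genes, *TPX2* only just and not once the TMM shift is applied. The kinetochore gene *SPC25* was at 4.65 (2.09 to 12.2). The S phase list summed to 1.09 (0.914 to 1.29; 0.989 by TMM), and the ratio there includes 1. The calcium pump *ATP2A2* was at 2.12 (1.19 to 3.98). In the energy list *ENO3* was at 0.573 (0.454 to 0.724) and *COX6A2* at 0.581 (0.408 to 0.826), while *PGAM2*, muscle phosphoglycerate mutase, was at 0.196 with 28 of the 44 E19 HS UMIs in 1 cell and at 0.528 without it.

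The genes farthest apart between the E19 libraries were plasma protein genes on the higher side and, on the lower, *GAPDH* and a mixed group that held the muscle genes *PGAM2* and *MYL1b*. *APOA2*, *APOC2*, *AMBP*, *AHSG*, *SERPINA1* and *APOA1*, plasma proteins of the yolk sac and liver, were 28.3, 17.6, 9.56, 8.78, 7.43 and 6.25 times higher in E19 HSTS. Of their 1272 UMIs in its members 954 (75%) lay in 1 cell of 26493 UMIs that also held 46 UMIs of *MYLPF*, 16 of *TNNC2* and 59 of *TNNT1*. Its Scrublet doublet score of 0.177 lay above the 0.158 that bounds the highest 8% of that library, and whether it holds 2 cells was not tested. Without the highest cell of each gene these ratios were 6.96, 7.83, 2.31, 1.84, 0.990 and 3.24. *MED13L* was at 4.15, with 2.36 in the other kept cells. Lower in E19 HSTS was *GAPDH*, the glycolytic enzyme, with 6 UMIs (5.54 CPM) against 1759 (2444 CPM), and the other kept cells of these libraries stood at 4.56 and 1469 CPM. *TSPO* (0.166), *WFDC2* (0.216, and 0.516 without 1 cell), *PALMD* (0.221), *MYL1b* (0.277), *S100A2* (0.298) and *ATP1B1* (0.327) followed. Of the named genes past 2-fold, 5 of 91 higher and 6 of 21 lower ones were also past it in the other kept cells.

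**Figure D5:**
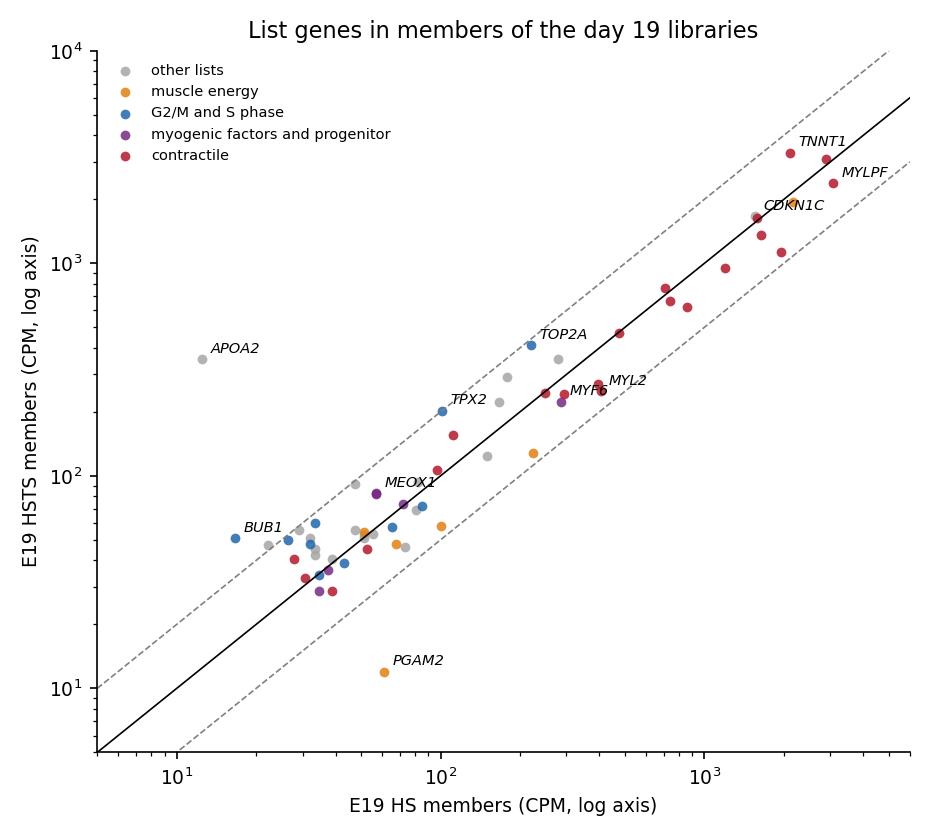
Member level in E19 HSTS (vertical) against E19 HS (horizontal), both in CPM on logarithmic axes, for the list genes with at least 50 UMIs over both libraries; dashed lines mark a 2-fold difference, the points are sums over 108 and 75 cells, and no error is drawn. Most contractile genes lie between the dashed lines, *TOP2A* (1.88 times), *TPX2* and *BUB1* lie towards E19 HSTS, and *PGAM2* towards E19 HS.

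For E16 HS against E19 HS the 14 cells hold only 144045 UMIs in all, and 1733 genes could be compared. At least 2-fold higher at E16 were 153 genes (8.83%) and lower 105 (6.06%), and by TMM, which moves the ratios by -0.49 on the log2 scale, 36 and 237. Muscle filament genes were among the lower ones: all 5 tested thick filament genes and 10 of 11 thin filament genes were at least 2-fold lower. These counts include genes that chose the members, *MYLPF* in the thick filament list and *TNNC2* and *KLHL41* in the thin filament list. *TNNC1* and *MYH3* had 0 UMIs at E16, *MYL2*, *NEB* and *TNNT2* had 1 each and *MYL4* had 4, all in 1 cell. The other kept cells were lower at E16 too for *MYL2* (0.0178 times), *MYH3* (0.169), *TNNT2* (0.219), *MYL4* (0.230) and *TNNC1* (0.291), but not for *NEB* (1.07). *ACTC1* had 27 UMIs, all of them in the 2 cells with 3 or 4 rule genes (1455 and 1022 CPM), and those 2 cells also held 14 of the 15 UMIs of *TNNI1* and 24 of 30 of *TNNT1*. The 12 others thus had 0 UMIs of *ACTC1*. On the higher side were mitotic genes, *NUF2* (5.00 times, 2.88 to 8.66), *TPX2* (4.17), *CENPW* (3.94), *NCAPG* (3.81) and *TOP2A* (3.73), together with *DICER1* (3.68), *SSRP1* (3.58) and *FST* (follistatin, an activin antagonist; 3.71, at 458 against 124 CPM). In the other kept cells *NUF2* was at 1.45 times, *TPX2* at 1.53, *TOP2A* at 1.14 and *FST* at 1.5. Of the named genes past 2-fold, 11 of 124 higher and 22 of 94 lower ones were also past it in the other kept cells. The *PAX3* and *MEOX1* cells of E16 HS held 9 UMIs of *MYF5*, 14 of *MYF6* and 0 of *MYOG* among 265 cells.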

How the data were processed

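The authors aligned and counted the reads with Cell Ranger 6.1.2 against Ovis_aries_genome_v1.0 and, per the labels, went on in R 4.1.2 with Seurat 4.1.1. The deposited files hold the authors' raw UMI counts of 26478 genes (16670 with a symbol) by barcode, filtered by Cell Ranger's cell call and not normalized, with no cell annotation. Everything after that was computed here with Python 3.11.15 and scipy 1.17.1.

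Cells were kept and members chosen as the report states. The members and gene lists were chosen with earlier results of these data known. Counts were summed over the members of a library and scaled to CPM, and ratios have exact conditional binomial intervals at 95%. With 1 library a group no test was made. Genes are counted by a fixed fold, 4 between members and other kept cells (13288 genes with at least 50 UMIs over all kept cells) and 2 between libraries (at least 50 UMIs over both), and a count of 0 was set to 3 for a bound. Named genes were all those of the lists, the 15 others with the largest lowest ratio over 3 libraries, and the 8 farthest each way between libraries. Thinning drew 3000 UMIs a cell with a fixed seed and left out 1106, 1345 and 1317 shallower cells (E19 HSTS, E19 HS, E16 HS).

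Doublets were scored with Scrublet (scanpy 1.11.5) and kept. It called 193 cells (2.01%) in E19 HSTS, 0 in E19 HS, where the caller did not work, and 198 (1.75%) in E16 HS, and 7, 6 and 2 members lay among the highest 8% of scores. The E19 libraries shared 38 cell barcodes, 1 of them a member's, and E16 HS shared 41 and 42 with them. Alternatives were a stricter cell filter (at least 500 genes, at most 5% mitochondrial UMIs), all barcodes, 3 rule genes, thinning, no highest Scrublet scores, at least 20 UMIs a gene and TMM (edgeR 4.0.16). The ratios, intervals and thinning were tested on simulated data. No sequences or coordinates are given, as no genome of this build was used here.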

Additional observations from a re-analysis of the deposited data

Results flagged for a closer look

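Barcodes outside the cell filter also met the member rule, in data that the comparisons do not use. In E19 HSTS 7 of 1496 such barcodes did (0.468%, against 0.201%, the limit that a count of 0 allows), and in E19 HS 4 of 1435 (0.279%, against 0.209%). In E16 HS 0 of 1316 did.

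*CDK1*, a mitotic kinase, was 2.25 times higher in the cells that met the rule than in other kept cells in E16 HS and stood at 0.357 times in E19 HS. The difference between these ratios was not tested.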

How the results depend on the processing

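No paired analysis was possible because each group has 1 library, and no replicate could be left out. The share ratio of E19 HSTS to E19 HS stayed above 1 under every alternative (1.39 to 1.87), but its interval included 1 with at least 3 rule genes (0.913 to 2.14) and after thinning. With at least 3 rule genes the shares were 0.551%, 0.395% and 0.0177% (E19 HSTS, E19 HS, E16 HS), the share ratio of E16 HS to E19 HS was 0.0447, and 47 genes were at least 2-fold higher in E19 HSTS. Thinned, the shares were 0.599%, 0.431% and 0.0200%, the E16 to E19 HS ratio 0.0464, genes 4-fold higher in all libraries 22, genes higher and lower in E19 HSTS 14 and 12, and in E16 HS 28 and 44, of fewer genes tested. With at least 20 UMIs a gene these last were 381 and 92, and 476 and 277. By TMM they were 75 and 44, and 36 and 237. In both E19 libraries alone, a choice made after seeing the data, 237 genes were 4-fold higher. Without the 1 member rich in plasma protein genes, also chosen afterwards, 110 and 28 differed between the E19 libraries. Yolk sac and hepatic genes, 14.8 times higher in E19 HSTS members, turned to 0.198 with 3 rule genes and 0.513 without the highest Scrublet scores, which leave out that cell. Synapse genes at E16, 0.204 times E19 HS, turned to 1.67 when thinned; the cause was not tested. Of the other list ratios, 171 of those between libraries stayed within their error and 54 moved. Of those of members over other kept cells, 232 stayed and 139 moved. A turn, meaning a ratio that crossed 1, was counted only for ratios past a fold with an interval off 1. That fold was 4 for members over other kept cells and 2 between libraries. No ratio of members over other kept cells turned by that measure, and smaller ones that crossed 1 are counted as moved or stayed.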
